A study of Homo sapiens with 6 samples.

Results

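A set of 5 genes of glucose uptake, glycolysis and the hypoxia response, HK2, PFKP, NDRG1, SLC2A3 and BNIP3L, were followed over 6 expression arrays of HEK293 cells. They were taken as the probe sets that the array platform's annotation assigns to these symbols, and all 5 genes were found among the 11584 genes with a value. They were chosen by their measured difference between cells given siRNA against LIN28B and mock cells not induced, on these same arrays. Their values in that contrast are therefore described without a test, and the tests below are of other genes or of another contrast. In the deposited table of 13008 probe sets, each gene was read by a single probe set of its own. SLC2A3 was also read by a probe set that it shares with its close paralog SLC2A14. Any further sets that the array may carry for these genes are not in that table.

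The cells were HEK293 T-REx Flp-In, a human embryonic kidney line, carrying a doxycycline-inducible LIN28B with a FLAG/HA tag in all 3 groups. In the first group the transgene was not induced and the cells were mock transfected. In the second it was induced with doxycycline and the cells were mock transfected; the labels' protocols give 250 ng/ml for 15 to 20 h before crosslinking and no time for the cells put on the arrays. In the third it was not induced and the cells were transfected with siRNA using Lipofectamine RNAiMAX, a lipid reagent. Each group had 2 arrays, and the labels name no group with a non-targeting siRNA, so the siRNA contrast holds transfection of an siRNA as well as the loss of LIN28B. Nothing in the labels says that the numbered replicates were separate cultures, so each p-value measures only how far these arrays scatter, which may be technical scatter.

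Glucose enters the cell through facilitative transporters and is trapped by hexokinase, and phosphofructokinase then commits it to glycolysis. When oxygen is low, the hypoxia-inducible factors (HIF) escape hydroxylation and VHL-directed destruction and switch on transporters, glycolytic enzymes and genes that trim mitochondria by mitophagy. LIN28B binds RNA, keeps let-7 microRNA precursors from being processed and also binds many mRNAs; LIN28 proteins have been tied to glucose metabolism in other systems. HEK293 cells grow on high-glucose medium and, like many transformed lines, carry out glycolysis with oxygen present.

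The promoters of HK2 and PFKP are shown first because HIF and MYC, which are both known to act on glycolytic genes, read short motifs that overlap. Windows of these 2 genes were used from the RefSeq promoter table (GRCh38.p14): 2 start sites for HK2 and 4 for PFKP. Each window was taken as the 250 bases before the start. Windows on 1 chromosome were left out when members were looked up. That NDRG1 and BNIP3L are missing here therefore does not mean that the table held no window for them. SLC2A3 lies on another chromosome, and no window for it was given. Capitals mark ACGTG or GCGTG, the core of the HIF response element, on either strand (CACGT or CACGC on the strand printed). The first sequence is HK2 window 1, chr2:74833877-74834126, the second is HK2 window 2, chr2:74834920-74835169, and the third is PFKP window 3, chr10:3068939-3069188, all on the plus strand.
HK2 window 1: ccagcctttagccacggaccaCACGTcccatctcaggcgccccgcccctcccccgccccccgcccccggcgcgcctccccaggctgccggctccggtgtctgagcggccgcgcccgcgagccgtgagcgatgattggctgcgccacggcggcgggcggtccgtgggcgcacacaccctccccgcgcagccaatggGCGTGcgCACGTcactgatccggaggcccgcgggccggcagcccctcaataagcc
HK2 window 2: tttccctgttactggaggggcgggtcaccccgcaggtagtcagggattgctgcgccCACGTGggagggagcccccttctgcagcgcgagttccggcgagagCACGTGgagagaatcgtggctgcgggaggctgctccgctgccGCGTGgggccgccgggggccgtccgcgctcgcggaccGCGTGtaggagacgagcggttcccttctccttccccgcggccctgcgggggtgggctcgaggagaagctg
PFKP window 3: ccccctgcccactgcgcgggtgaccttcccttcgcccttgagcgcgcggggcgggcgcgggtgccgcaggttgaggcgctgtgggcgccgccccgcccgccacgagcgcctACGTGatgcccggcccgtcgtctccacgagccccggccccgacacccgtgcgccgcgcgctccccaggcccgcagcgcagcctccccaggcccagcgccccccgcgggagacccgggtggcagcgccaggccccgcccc
HK2 window 1 had 2 matches to ACGTG and 1 to GCGTG, of which 2 began 55 and 48 bases before the start. HK2 window 2 had 4 matches to ACGTG and 2 to GCGTG; its 4 matches to ACGTG are the 2 strands of 2 copies of CACGTG, the E-box that MYC and its partner MAX read. The PFKP window printed, chosen as the only one of its 4 with ACGTG, had 1 match, 139 bases before the start. PFKP windows 1 and 2 had 0 matches to either motif, window 4 had 3 to GCGTG, 61, 19 and 13 bases before the start, and the 4 PFKP windows held CACGTG in 0 cases. Of the 35116 windows of this length in the table, 18.5% held ACGTG, 32.2% GCGTG, 43.2% either, and 6.34% CACGTG. The windows printed are rich in G and C: 76.8% and 71.6% of bases for HK2 windows 1 and 2, and 81.6% for PFKP window 3. The shares above are over windows of every composition, and shares for windows of like composition were not computed. All of these are matches of letters, and no binding was measured.

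In the cells given siRNA, SLC2A3 and BNIP3L read higher and HK2, PFKP and NDRG1 read lower than in mock cells, while the 2 mock groups lay close together for all 5 genes. Values below are log2 expression as deposited, where a difference of 1 is a 2-fold change. For each gene the knockdown arrays lay outside the range of the 4 mock arrays. That is common here: of all genes, 27.1% had both knockdown arrays above every mock array and 26.0% had both below. These are whole-cell RNA values, in which fewer cells of a kind and less RNA per cell cannot be told apart. Nothing about the genes can be read from that separation, since they were chosen for it.

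SLC2A3 encodes GLUT3, a glucose transporter of high affinity best known from neurons. It read 5.13 and 5.39 in mock cells not induced, 4.95 and 5.13 in induced cells, and 6.37 on both knockdown arrays. The knockdown arrays were thus the highest and the induced arrays the lowest, and the 2 mock groups all but met at 5.13. The knockdown mean was 1.11 above mock cells not induced and 1.33 above induced cells on the log2 scale. No fold is given, because the mock arrays lay where the blood markers CD79A and HBB also read (4.93 to 5.38), and whether SLC2A3 was above background there was not tested. The 2 knockdown values differed by under 0.00001, which was so for 2 of the 13008 probe sets, so their spread says little about the error. SLC2A3 sat low on the scale, with a mean over the 6 arrays above that of 13.0% of probe sets.

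A second reading of SLC2A3 came from the probe set it shares with SLC2A14, a paralog of such similar sequence that the annotation does not part them. It read 4.92 and 5.10 in mock cells not induced, 4.97 and 5.07 in induced cells, and 6.02 and 5.66 in the knockdown. It was higher in the knockdown too, by 0.83, with a gap of 0.56 between the nearest knockdown and mock arrays. Taken by the same symbol on the same arrays, it is no independent check of a gene chosen for that difference. This set also sat low on the scale, with a mean above that of 7.33% of probe sets. How much of either signal is SLC2A14 was not tested, since that gene has no probe set of its own in the table.

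HK2 encodes hexokinase 2, the inducible hexokinase that binds the outer mitochondrial membrane and performs the first step of glycolysis. It read 7.47 and 7.67 in mock cells not induced, 7.58 and 7.69 in induced cells, and 6.52 and 6.71 in the knockdown. The 4 mock arrays spanned 0.22 and the nearest knockdown array lay 0.76 below them. The knockdown mean was 0.96 below mock cells not induced, which leaves 51.5% of that level, and 1.02 below induced cells. The probe set that reads HK2 was designed on an expressed sequence tag rather than on the full mRNA, and which transcript forms it reads was not tested.

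PFKP encodes the platelet type of phosphofructokinase, which makes fructose 1,6-bisphosphate. It read 10.49 and 10.63 in mock cells not induced, 10.52 and 10.66 in induced cells, and 9.85 and 10.12 in the knockdown. The knockdown arrays were the lowest, but they were also the most scattered, with an SD of 0.19 against 0.09 and 0.10 in the mock groups (n = 2 each). The mean difference from mock cells not induced was -0.57, or 67.4% of that level, and it was -0.70 without knockdown replicate 2 and -0.43 without knockdown replicate 1. PFKP was the brightest of the 5, above 93.7% of probe sets by its mean over the 6 arrays, a rank within this table and not a level compared with the other genes.

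NDRG1, a gene of stress and differentiation that hypoxia induces strongly in many cells, read 8.99 and 9.26 in mock cells not induced, 9.03 and 8.97 in induced cells, and 8.53 and 8.56 in the knockdown. Here the mock cells not induced were the scattered group, and replicate 2 of them was the highest array. The knockdown mean was 0.58 below mock cells not induced, or 67.0% of their level, and 0.45 below induced cells. Without that replicate 2 the first difference was -0.44, and without replicate 1 it was -0.71.

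BNIP3L encodes NIX, a receptor in the outer mitochondrial membrane that hands mitochondria to the autophagy machinery and that HIF induces. It read 8.76 and 8.64 in mock cells not induced, 8.76 and 8.58 in induced cells, and 9.61 and 9.51 in the knockdown. Both knockdown arrays lay at least 0.75 above every mock array. The mean difference was 0.86 from mock cells not induced, or 1.82-fold, and 0.89 from induced cells.

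Among all 11584 genes, the absolute differences of SLC2A3, HK2 and BNIP3L exceeded those of 98.5%, 97.4% and 96.3% of genes, and those of NDRG1 and PFKP 89.2% and 88.8%. The 5 genes thus spread over the upper part of the distribution, as their choice fixes.

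**Figure D1:**
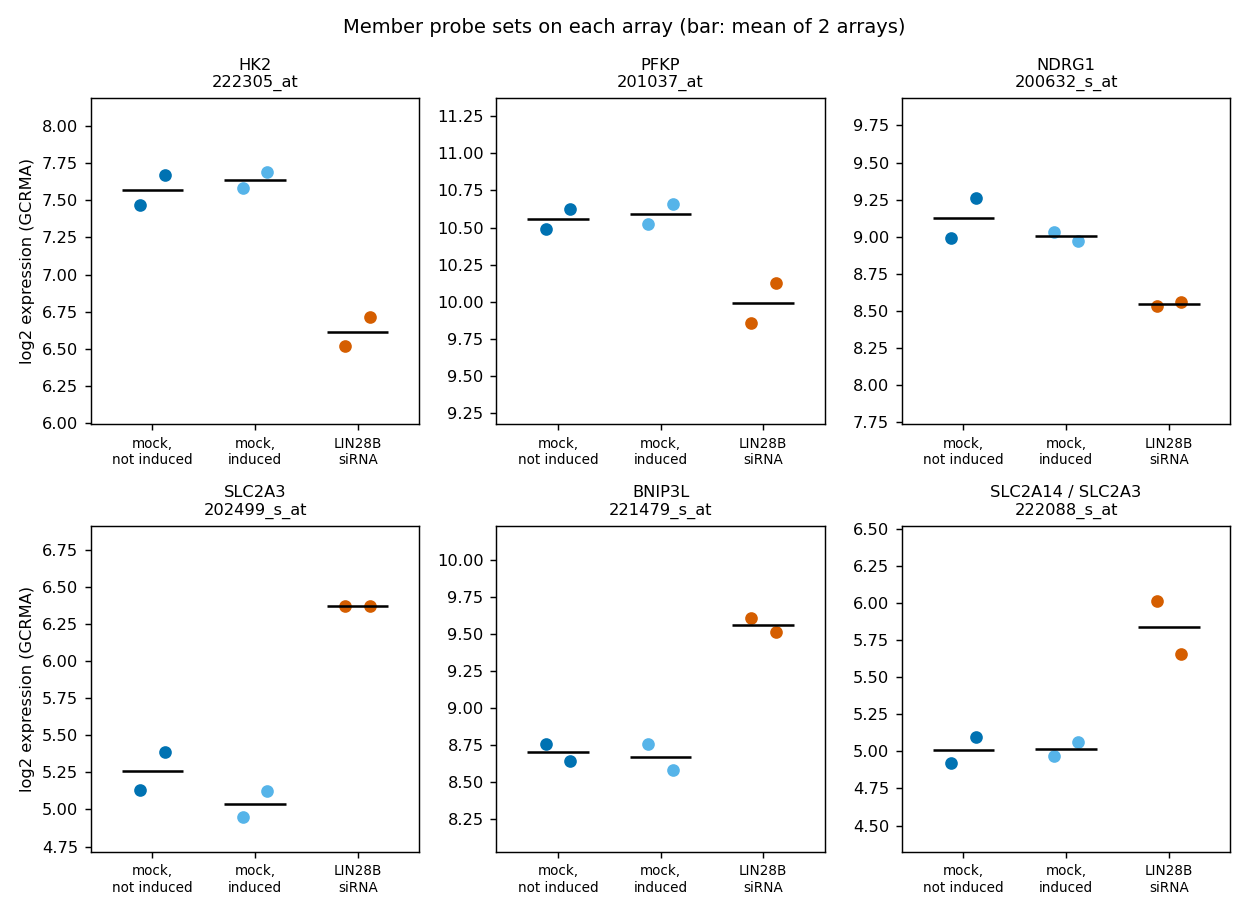
Log2 expression (y axis) on each of the 6 arrays for the probe sets of HK2, PFKP, NDRG1, SLC2A3 and BNIP3L and for the set shared by SLC2A14 and SLC2A3. Points are arrays, bars the mean of the 2 arrays of a group, and each panel spans the same number of log2 units; the knockdown arrays lie below the mock arrays for HK2, PFKP and NDRG1 and above them for SLC2A3 and BNIP3L.

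Induction of the tagged LIN28B is a contrast other than the siRNA contrast, although it shares the mock cells not induced. Whether the induced arrays also had a part in the choice of the genes is not known, so the test may not be independent of that choice. None of the 5 was called by limma (adjusted p = 0.999 for each), and across all genes 0% were called, with 344 of 11584 at an unadjusted p under 0.05. SLC2A3 had the widest interval: the difference of induced minus not induced cells was -0.22 (SE 0.16, 95% interval -0.58 to 0.14). It was -0.12 for NDRG1 (-0.34 to 0.09), 0.07 for HK2 (-0.20 to 0.33), 0.03 for PFKP (-0.17 to 0.24) and -0.03 for BNIP3L (-0.23 to 0.17). The intervals of HK2, PFKP, NDRG1 and BNIP3L reach no further than 0.34 from 0 in either direction, and that of SLC2A3 reaches 0.58. LIN28B itself read 10.02 and 9.85 without induction, 10.15 and 10.11 with it, and 7.51 and 7.53 in the knockdown. Whether the probe set reads a stretch present in the transgene is not stated, so it does not check the induction.

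Whether the closest relatives of the 5 genes moved was asked next, using the paralogs that have a probe set. HK1, the constitutive hexokinase, read 9.17 and 9.27 in mock cells not induced and 9.08 and 9.14 in the knockdown, a difference of -0.11 (95% interval -0.28 to 0.07, limma adjusted p = 0.349). PFKL, the liver type of phosphofructokinase, fell: 7.13 and 7.20 in mock cells not induced, 7.23 and 7.15 in induced cells, and 6.72 and 6.81 in the knockdown (difference -0.40, SE 0.11, limma adjusted p = 0.0205). Its call was lost without either knockdown array or without not-induced mock replicate 2, with limma adjusted p up to 0.125. PFKM, the muscle type, differed by -0.15 (-0.32 to 0.03, limma adjusted p = 0.191).

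SLC2A1 encodes GLUT1, the main glucose transporter of most cultured cells. It read 7.30 and 7.18 in mock cells not induced, 7.36 and 7.33 in induced cells, and 7.10 and 6.85 in the knockdown. The difference of -0.27 from mock cells not induced was not called (limma adjusted p = 0.123), and that of -0.37 from induced cells was. BNIP3, the sister mitophagy receptor and a textbook HIF target, differed by 0.08 (-0.07 to 0.23, limma adjusted p = 0.402). NDRG2, NDRG3 and NDRG4 differed by 0.17, -0.03 and 0.03 and none was called. Differences between a gene and its paralog were not tested. HK3, HKDC1, SLC2A2, SLC2A4 and SLC2A14 had no probe set of their own in the table.

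**Figure D2:**
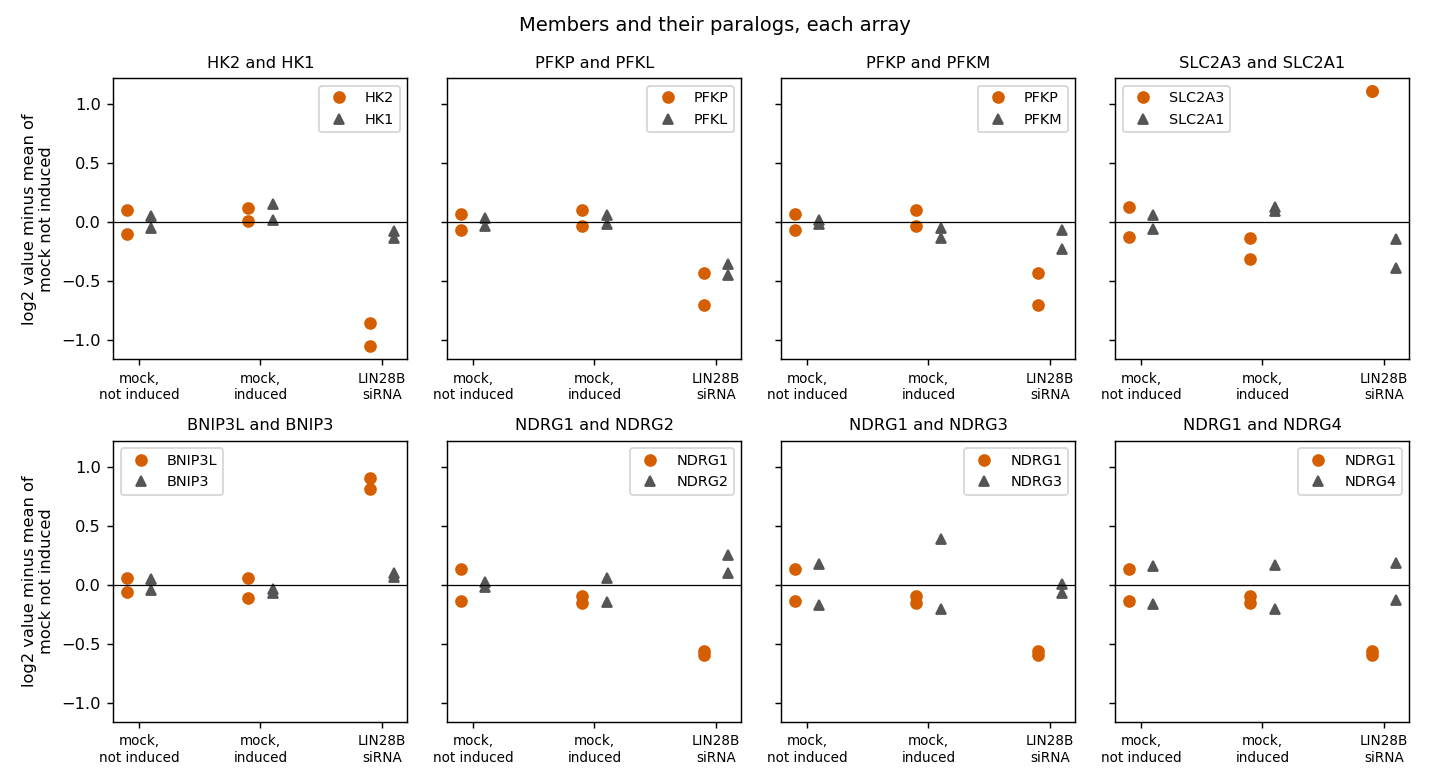
Log2 value on each array minus the mean of the 2 mock arrays not induced, for each member (orange circles) beside a paralog (grey triangles), by group. The members sit apart from 0 in the knockdown, as their choice fixes. HK1, BNIP3 and the NDRG paralogs lie within 0.3 of 0 there. PFKL lies below 0 there, as PFKP does, and SLC2A1 lies below 0 where SLC2A3 is above it.

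Around the 5 genes, 7 lists of pathway genes from textbook knowledge were tested in the siRNA contrast, with the 5 left out. The lists were chosen with earlier results of these data known. Their shares of called genes, here and list by list below, are therefore no independent test. The lists held 225 genes, of which 191 had a value. Limma called 67 of these, or 35.1%, with 31 higher and 36 lower, against 28.0% of all genes tested (13.5% higher and 14.5% lower). The median difference was -0.01 over the 191 genes and 0.01 over all genes. The counts rest on both knockdown arrays: over all genes 3242 were called, 1664 without knockdown replicate 1 and 1975 without replicate 2, a fit in which the single array left is given the other groups' spread.

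In glucose uptake, glycolysis and lactate handling, 8 of 28 measured genes fell, 3 rose and 17 were not called, which is 39.3% called, and the median difference was -0.10. The genes that fell lie along the trunk of the pathway after hexokinase, one to nearly every step: GPI (-0.21), PFKL (-0.40), ALDOA (-0.36), TPI1 (-0.13), GAPDH (-0.09), ENO1 (-0.25), PKM (-0.30) and LDHA (-0.11), named together after their values were seen. ALDOA, the main aldolase, read 12.53 and 12.57 in mock cells not induced, 12.54 and 12.56 in induced cells and 12.25 and 12.13 in the knockdown (SE 0.04, limma adjusted p = 0.000426). These are small differences in bright probe sets, and PGK1 (0.04) and PGAM1 (-0.01), of the same stretch and picked after their values were seen, were not called. At the step of ENO1, the other enolases ENO2 (0.30) and ENO3 (0.60), also picked afterwards, read higher in the knockdown and were not called.

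The 3 genes that rose were BPGM, TIGAR and LDHC. BPGM, which diverts glycolytic carbon into 2,3-bisphosphoglycerate, rose by 0.71 (SE 0.21, limma adjusted p = 0.0329), and TIGAR, which lowers fructose 2,6-bisphosphate, by 0.47 (SE 0.14, adjusted p = 0.0344). In both genes not-induced mock replicate 1 stood far above replicate 2 (7.53 and 6.71 for BPGM, 9.20 and 8.64 for TIGAR), and without replicate 2 the differences were 0.30 and 0.20 and neither was called. LDHC, the lactate dehydrogenase of testis, rose by 0.40, so the step at which LDHA fell had a called gene in each direction.

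The number called in this list is fragile. It was 2 when the error model had no intensity trend, 3 without not-induced mock replicate 2, and 4 without either knockdown array. With arrays centred on their medians, 4 fell and 4 rose, and GAPDH, TPI1, PKM and LDHA were no longer called. Over all genes, 2589 were called without the trend and 3357 with centring, against 3242 in the main fit. ALDOA alone was called under every alternative.

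**Figure D3:**
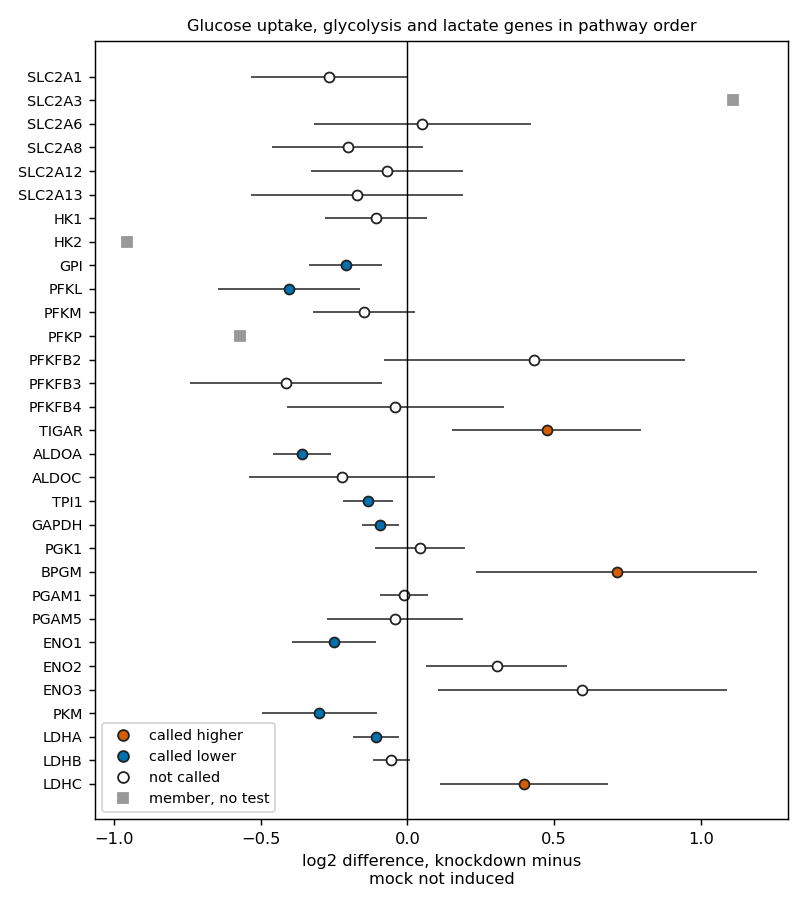
Difference in log2 expression, knockdown minus mock not induced (x axis), for glucose uptake, glycolysis and lactate genes in pathway order (y axis). Circles with 95% intervals from limma are list genes, filled where called; grey squares are members, shown without a test. HK2 and SLC2A3 lie furthest out, at -0.96 and 1.11, and the called trunk enzymes from GPI to LDHA lie between -0.40 and -0.09.

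Next to glycolysis, 10 of 33 genes of pyruvate entry, the pentose phosphate pathway and glycogen fell, 4 rose and 19 were not called (42.4% called, median -0.17). PCK2, the mitochondrial PEP carboxykinase, fell by 0.78, from 7.04 and 7.02 to 6.24 and 6.25 (limma adjusted p = 0.000753), and it read 7.43 and 7.40 in induced cells. PGM2, a phosphoglucomutase, fell by 0.76 and RPE, an epimerase of the pentose phosphate pathway, by 0.56. PDK4, a kinase that shuts pyruvate dehydrogenase, rose by 0.61, from 5.43 and 5.45 to 6.03 and 6.08, but it was not called without any one of the 4 arrays compared. Of this list 6 were called without knockdown replicate 1 and 8 without replicate 2. PCK2, PGM2, PGM1, DLD and PDHB were called under every alternative; the last 3 were picked for that, PGM1 and the dehydrogenase subunit DLD falling by 0.43 and 0.56 and the pyruvate dehydrogenase subunit PDHB rising by 0.30.

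Of 20 measured genes of oxygen sensing and HIF control, 8 rose, 2 fell and 10 were not called (50% called, median 0.01), and over the whole list 10 differences were positive and 10 negative. Apart from the HIF subunits and ligase parts given below, the risers were HIF1AN, the asparaginyl hydroxylase that senses oxygen, the HIF coactivators EP300 and CREBBP, and OS9. The prolyl hydroxylases EGLN1 and EGLN3, the main oxygen sensors, differed by -0.21 and -0.49 and P4HTM by -0.21, and none of these was called; these 7 genes were picked after their values were seen. EPAS1, which encodes HIF2-alpha, read 4.66 and 4.84 in mock cells not induced, 5.42 and 5.15 in induced cells and 5.92 and 6.02 in the knockdown, a rise of 1.22 (SE 0.17, limma adjusted p = 0.000832) from the bottom of the scale; against induced cells the difference was 0.69. HIF1A, the other main HIF subunit and picked after its value was seen, rose from 11.05 and 10.96 to 11.24 and 11.26, by 0.25, and lost its call without the intensity trend (adjusted p = 0.0765).

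Subunits of the VHL ubiquitin ligase, which marks hydroxylated HIF for destruction, went both ways. RBX1, its RING subunit, rose by 0.61 (SE 0.05, limma adjusted p = 6.24e-05), from 10.92 and 10.97 to 11.55 on both knockdown arrays, and ELOC, picked after its value was seen, rose by 0.31. The scaffold gene CUL2 fell by 0.60, and VHL itself, also picked afterwards, differed by -0.13 and was not called. LIMD1, an adaptor that links prolyl hydroxylase to VHL, fell by 0.61 with knockdown arrays at 5.46 and 6.01. Of the oxygen-sensing list, CUL2 was not called without not-induced mock replicate 1 or without either knockdown array. LIMD1 was not called without either not-induced mock array, without knockdown replicate 1 or without the intensity trend. Of this list 6 were called without knockdown replicate 2 and 5 without the intensity trend. RBX1, EPAS1 and OS9 were called under every alternative that kept them.

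Of 44 measured genes that HIF is known to induce, 8 fell, 4 rose and 32 were not called (27.3% called, against 28.0% of all genes, median 0.10). The calls and the signs leaned opposite ways: over the whole list, 31 differences were positive and 13 negative, against 5883 and 5701 over all genes. CA12, a membrane carbonic anhydrase, fell by 1.02, from 7.13 and 7.23 in mock cells not induced, with 6.96 and 7.08 in induced cells, to 6.18 and 6.13 (limma adjusted p = 0.000285). TMEM45A fell by 0.78 and the creatine transporter gene SLC6A8 by 0.56, though not-induced mock replicate 2 stood high for SLC6A8 (8.23 against 7.60) and without it the difference was -0.24 and not called. WSB1, a ubiquitin ligase adaptor, rose by 0.68, from 9.34 and 9.50 to 10.14 and 10.06. The angiogenic factor gene VEGFA, the vasodilator gene ADM and the lipid droplet gene HILPDA, chosen after their values were seen as textbook HIF targets, differed by -0.32, 0.10 and 0.02 and were not called.

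The split of this list moved with the choices made. With arrays centred, 9 rose and 7 fell, while over all genes 1836 rose and 1521 fell. With quantile normalization 6 rose and 7 fell, beside 1622 and 1660 over all genes. With both mock groups as controls, 12 rose and 10 fell, beside 2110 and 2180 over all genes. Against induced cells alone 13 rose and 8 fell, or 47.7%, beside 28.4% of all genes (14.0% higher and 14.5% lower). Without either knockdown array 2 rose and 4 fell.

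**Figure D4:**
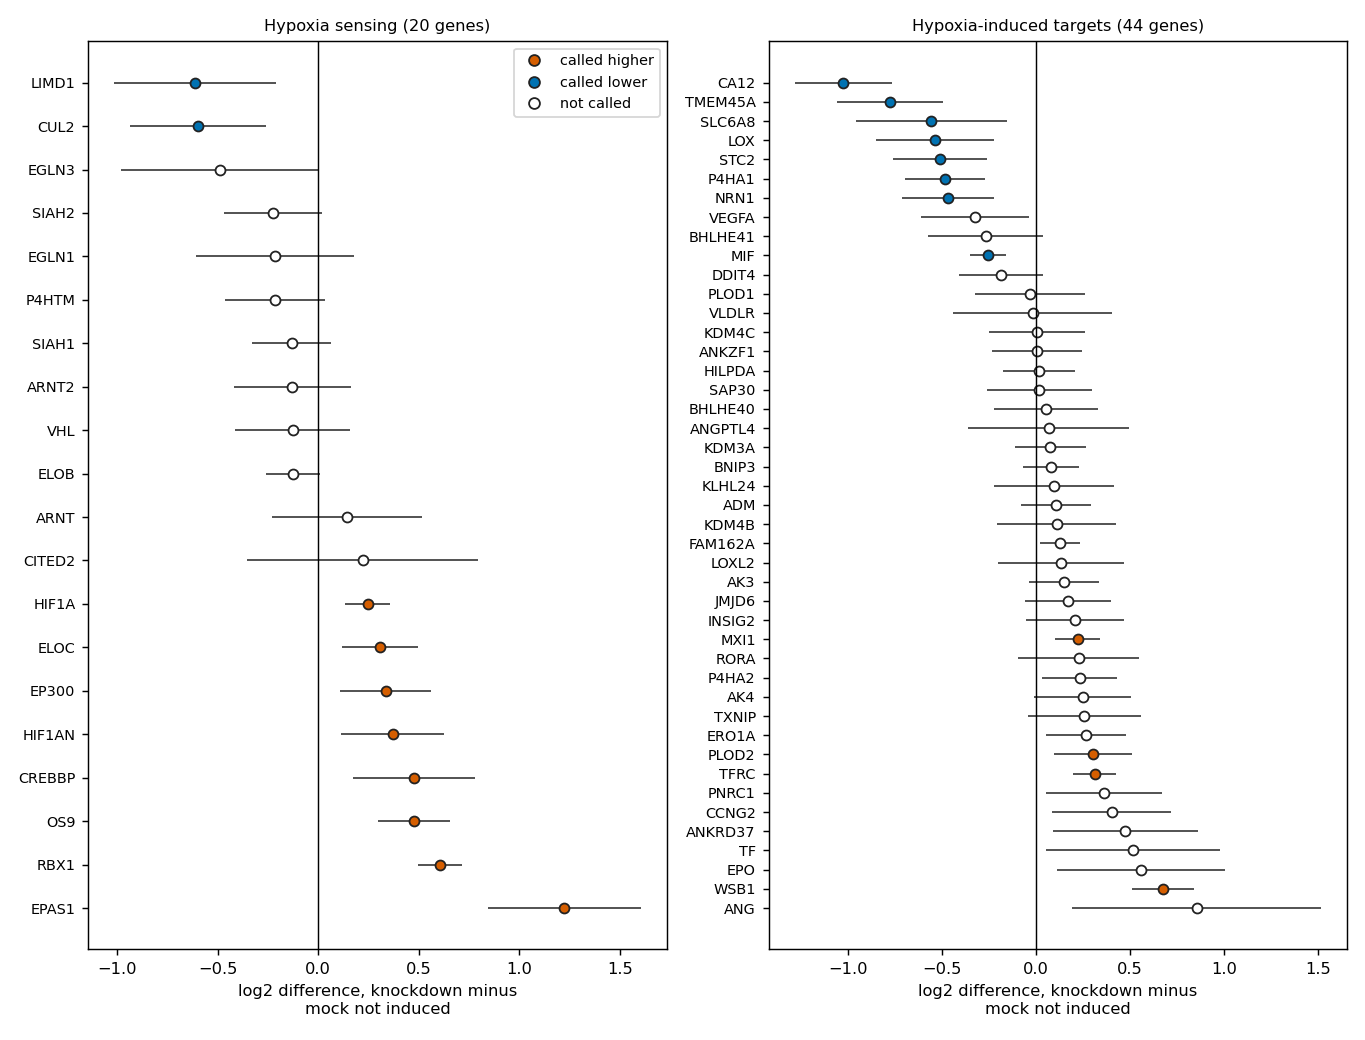
Difference in log2 expression, knockdown minus mock not induced (x axis), with 95% intervals from limma, for 20 hypoxia-sensing genes (left) and 44 hypoxia-induced targets (right), sorted by difference. Filled circles were called; 8 sensing genes rose and 2 fell, and 4 targets rose and 8 fell.

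The mitophagy receptors, their partners and the BCL2 family, to which BNIP3L is tied, held 9 genes that rose, 3 that fell and 19 not called of 31 (38.7% called, median 0.12). BIK, a BH3-only killer protein, rose by 0.80 and BECN1, a core autophagy protein whose name comes from its binding to BCL2, by 0.74, from 8.90 and 8.75 to 9.62 and 9.51 (limma adjusted p = 0.000233). OPTN, another mitophagy receptor, rose by 0.64, from 7.58 and 7.42 to 8.18 and 8.11. The autophagy initiation gene RB1CC1 fell by 0.46. The partners of NIX on the autophagosome differed: GABARAP rose by 0.35 and MAP1LC3B fell by 0.40, both picked after their values were seen and both called under every alternative. PINK1, which starts the other main route of mitophagy and was picked after its value was seen, differed by -0.07 and was not called. Of this list 7 were called without knockdown replicate 1 and 6 without replicate 2.

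Of 27 regulators of glucose metabolism, 4 fell, 2 rose and 21 were not called (22.2% called, median -0.16). MYC, a transcription factor that drives glycolytic genes, fell by 1.13, from 9.61 and 9.96 in mock cells not induced, with 9.65 and 9.68 in induced cells, to 8.66 on both knockdown arrays (limma adjusted p = 0.000108). PRKAA1, a catalytic subunit of the energy sensor AMPK, fell by 0.88, from 6.24 and 6.05 to 5.34 and 5.19, and PPARGC1B by 0.55. SIRT1, a deacetylase, rose by 0.48. MYC and PRKAA1 were called under every alternative, and the list had 2 calls without knockdown replicate 1 and 3 without replicate 2.

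The last list held the NDRG family and kinases tied to NDRG1, which SGK1 phosphorylates. Of 8 genes, 1 rose, 1 fell and 6 were not called (25.0% called, median 0.10). SGK1 rose by 0.71, from 6.50 and 6.03 to 7.05 and 6.90 (limma adjusted p = 0.00938); it read 6.52 and 6.58 in induced cells, and the difference from them, 0.42, was not called. MLST8, a subunit of both mTOR complexes, fell by 0.70, from 9.05 and 9.07 to 8.43 and 8.29 (limma adjusted p = 0.000298). Without knockdown replicate 1 SGK1 lost its call, and without not-induced mock replicate 1, 3 of the list were called.

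For each of the 5 genes the 3 genes of most similar pattern were sought, by the root mean square difference over the 6 arrays after centring each gene on its own mean. The closest match of all was CCDC8 to PFKP, at 0.03 log2 units, followed by ANKS6 (0.04) and ANKRD6 (0.05). Nearest to NDRG1 were DCLK1 (0.03), PYCR1, an enzyme of proline synthesis (0.04), and COL27A1 (0.04). Nearest to HK2 were METTL2B (0.05), DICER1-AS1 (0.05) and ID1, an inhibitor of helix-loop-helix transcription factors (0.06).

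On the higher side, COPS7B (0.05), GFPT1, the entry enzyme of the hexosamine pathway that draws on glycolysis (0.05), and GPKOW (0.05) were nearest to BNIP3L. GFPT1 read 7.34 and 7.26 in mock cells not induced, 7.29 and 7.26 in induced cells and 8.21 and 8.20 in the knockdown. Nearest to SLC2A3 were ATXN1 (0.05), ABCA17P (0.10) and TSHZ1 (0.11). The distance is not scaled to the size of a gene's difference, which was largest for SLC2A3. By Pearson correlation over the 6 arrays, these matches stood at 0.9962, 0.9895 and 0.9907, and ANKRD6 with PFKP at 0.9881. Among the 5 themselves, PFKP and NDRG1 were the closest pair (0.12), and SLC2A3 and BNIP3L differed by 0.24. With 6 arrays in 3 groups such likeness rests mainly on the knockdown difference.

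Arrays of a group correlated at 0.9899 to 0.9937 over probe sets and knockdown with mock arrays at 0.9700 to 0.9745; LIN28B fell by 2.42 (limma adjusted p = 5.02e-07). Of the genes HEK293 cells share with neurons and the adrenal lineage, NEFL, INA and CHGB were measured, 2 rising and 1 falling, and their mean level ran from 8.09 to 8.26 on mock arrays and from 8.40 to 8.55 on knockdown arrays. Of 5 epithelial markers 4 were measured (2 rose, 1 fell; 8.61 to 8.76 on mock and 8.67 to 8.75 on knockdown arrays). Of fibroblast markers 1 of 6 (COL1A1), of blood markers 2 of 5 and of endothelial markers 0 of 4 were measured, and none of these was called. The part of these markers in the results was not tested.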

How the data were processed

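Total RNA (2 µg a sample, per the labels' protocols) was read on Affymetrix U133 Plus 2.0 arrays. Log2 values of each probe set were deposited by the authors, made with affy and GCRMA per the submitters' processing notes, whose versions the sources used here do not give; base 2 is what GCRMA returns and is not written in the file. GCRMA corrects background by probe sequence, so low values depend on that model most. The table holds 13008 probe sets, and 13007 lay above 5 on at least 2 arrays, so a gene low on every array was not analysed here. Probe sets with 1 symbol (11719) were named through the platform annotation, with symbols updated by gene identifier to RefSeq (GRCh38.p14), and stood for 11584 genes; of these 130 had several sets and took that of highest mean. Sets ending in _s_at or _x_at can read related transcripts. A filter (above 4 on at least 2 arrays) removed 0.

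Testing used R 4.3.3 with limma 3.58.1 (lmFit, eBayes with intensity trend) and 1 model of 3 groups over 6 arrays, with 3 residual and 6.73 prior degrees of freedom, two-sided, Benjamini-Hochberg over all genes, called at adjusted p under 0.05. SE and 95% intervals come from that model, and the number of arrays limits precision. On data simulated for the siRNA contrast (11584 genes, 100 changed at each size), 82% of genes changed by 1 and 19% of those changed by 0.5 (log2) were called. Far more genes were called in the real contrast (3242), and the cutoff depends on that number. The simulated shares therefore do not carry over to it. Members and lists were chosen with earlier results of these data known. Named were the 5 genes, LIN28B, their paralogs, the up to 4 called genes of largest difference in each list, and the 3 nearest patterns; any other pathway gene is marked in the text as picked once its value was known. The replicate number was tried as a block.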

Additional observations from a re-analysis of the deposited data

How the results depend on the processing

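The differences of HK2, PFKP, NDRG1, SLC2A3 and BNIP3L between knockdown and mock cells not induced kept their direction under all 15 alternatives that gave a value. In each they moved by no more than the spread between replicates. Neither outcome tests the differences. The genes were chosen for this contrast, and their knockdown arrays lay outside the range of the mock arrays. Leaving out 1 array therefore could not reverse a sign. With 2 arrays in a group, it could not move a group mean beyond their spread either. Filters, error model and replicate block left the differences unchanged. With 1 array left out, the differences of these genes, in the order named, ranged from -1.06 to -0.86, -0.70 to -0.43, -0.71 to -0.44, 0.98 to 1.24 and 0.80 to 0.92. SLC2A3 has no array above 6 in mock cells but passed the stricter filter through the knockdown. The induced minus not induced differences lie near 0 and turned for 4 of the genes with 1 array left out: -0.033 to 0.17 for HK2, -0.036 to 0.10 for PFKP, -0.26 to 0.012 for NDRG1 and -0.12 to 0.056 for BNIP3L. None was called under any alternative.

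Counts of called genes without each array in turn ran from 1664 to 3143 for knockdown against mock not induced (3242 with all arrays), from 1702 to 3951 for knockdown against induced cells (3295; 1928 and 1811 without induced replicate 1 and 2, 1702 and 2068 without knockdown replicate 1 and 2), and from 0 to 1 for induced against not induced cells. For the lists they ran from 3 to 9 (glycolysis), 6 to 15 (pyruvate, pentose phosphate and glycogen), 4 to 8 (hypoxia sensing), 6 to 14 (hypoxia-induced targets), 6 to 12 (mitophagy), 2 to 5 (regulators) and 1 to 3 (NDRG family). Without the intensity trend, 2 glycolysis genes and 5 sensing genes were called, beside 2589 of all genes. With both mock groups as controls 22 hypoxia-induced targets were called, beside 4290 of all genes, with more arrays in the control. The cause of the shift without the trend was not tested.

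With the replicate number as a block, 3422, 0 and 3491 genes were called in knockdown against not induced, induced against not induced and knockdown against induced cells, and the lists gave 12, 15, 10, 14, 12, 6 and 2. Over genes, same-numbered arrays deviated together at r = 0.18 for the mock groups, -0.06 for knockdown with not induced and 0.02 for knockdown with induced cells. The labels give these arrays only a number in common, and whether they shared a batch was not tested. LDHA lost its call under the block.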
